A study of Mus musculus with 6 samples.

Results

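The collagen genes were taken as every gene symbol made of Col, a number, a lower-case a and a second number in the 6 tables of unique molecular identifiers (UMIs, each marking a captured transcript molecule). This rule found 35 of the 16557 genes listed in any table, with 10 in all 6 tables and 12 in a single table, and a collagen missing from a table was counted as 0. The tables come from single-cell RNA sequencing of 6 mouse rhabdoid tumors, 3 of the MYC spinal subtype and 3 extracranial rhabdoid tumors (eRT). The question addressed here was which collagens were found in *Smarcb1*-negative tumor cells and which in the cells around them. Each tumor came from 1 mouse, and the tumors are called MYC spinal 1 to 3 and eRT 1 to 3, numbers that only name them. Runs of 3 values follow the order of these numbers. The mice of all 3 MYC spinal tumors and of eRT 1 carried Rosa26-creERT2, driven by a promoter active in nearly all tissues, and those of eRT 2 and 3 carried Sox2-creERT2, active where the Sox2 promoter is. All 6 were *Smarcb1* fl/fl on a C57BL/6 background, and the recombinase was switched on by tamoxifen given once to the mother in early gestation. By the labels the mice were 19, 26 and 17 weeks old in the MYC spinal group and 17, 29 and 22 weeks old in the eRT group, in that order, and for eRT 1 the text of the study gives a different age. Every MYC spinal tumor lay in the spine, and the eRT lay at a gland, the jaw and the shoulder. The reference for tumor cells was the rest of the cells in each tumor. Subtype, site and mouse model cannot be told apart in full, because eRT 1 was the single Rosa26 tumor among the eRT.

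Collagens are triple-helical proteins assembled from 3 alpha chains, each chain the product of its own gene, and they are secreted into the extracellular matrix. Fibrillar collagens (types I, II, III, V, XI, XXIV and XXVII) form the tensile fibrils of connective tissue, type IV forms the mesh of basement membranes, type VI forms beaded filaments around cells, and type VIII forms a short-chain network near vessels and membranes. The fibril-associated collagens, called FACIT collagens, decorate the surface of fibrils, and the multiplexins XV and XVIII sit in basement membrane zones. Fibroblasts, osteoblasts and other mesenchymal cells are the textbook sources of types I, III, V and VI, and blood-derived immune cells make little of them.

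Cells were clustered without the collagens, and a cluster was taken as tumor where it held under 0.25 of the *Smarcb1* UMIs predicted from its depth and from immune-like cells. This gave 104, 236 and 1744 tumor cells in MYC spinal 1, 2 and 3 and 68, 201 and 625 in eRT 1, 2 and 3, of 22163 cells kept. The 6 libraries held between 3841706 and 26184224 UMIs, and levels below are counts scaled to a library of 1000000 UMIs (CPM), after summing UMIs over the cells named. The libraries capture transcripts at their 3′ end, so levels of different collagens were compared without a length correction. Whether different genes are captured equally well was not tested. In 5 tumors the tumor cells held 0 to 0.109 of the *Smarcb1* UMIs expected (0 of 32.4, 27 of 355, 3 of 27.6, 2 of 25.3 and 6 of 161 in MYC spinal 1, MYC spinal 3, eRT 1, 2 and 3), whereas in MYC spinal 2 they held 3 where 4.37 were expected, a ratio of 0.686, above the limit for a tumor cluster.

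The cells of MYC spinal 2 in tumor clusters fell into parts that stood apart from each other. At a finer clustering resolution of 1.6, only 16 of its 236 cells stayed in a tumor cluster, and those 16 held 181 of the 193 collagen UMIs, with 0 *Smarcb1* UMIs where 0.930 was expected. The same 16 cells carried 55 UMIs of *Ibsp* (bone sialoprotein) and 4 of *Sp7* (osterix), genes of the osteoblast marker list, which summed to 417 CPM in the tumor cells of MYC spinal 2 and to between 8.06 and 45 CPM in those of the other 5 tumors. The other 220 cells held 12 collagen UMIs among 166130 UMIs, 3 *Smarcb1* UMIs where 3.44 were expected, and *Ptprc* (CD45, the pan-leukocyte marker) at 163 CPM against 335 CPM in the immune-like cells of that tumor. For these 220 cells the values go against the tumor label, while for the 16 cells fewer than 1 *Smarcb1* UMI was expected, too few to check it. Counts of calls over the MYC spinal tumors or all tumors, and the collagens called over all tumors, are therefore given with and without MYC spinal 2.

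Collagen UMIs were more frequent in tumor cells than in other cells in all 6 tumors. Summed over the 35 genes, tumor cells of the MYC spinal tumors held 2833, 915 and 728 CPM, and their other cells held 30.5, 6.69 and 104 CPM. Tumor cells of the eRT held 1801, 1616 and 2654 CPM, against 76.4, 77.5 and 296 CPM in other cells. The lowest tumor-cell level lay above the highest level in other cells, and the ratio within a tumor ran from 7.01 in MYC spinal 3 to 137 in MYC spinal 2. Over the 6 tumors the mean was 1758 ± 866 CPM (SD, n = 6) in tumor cells and 98.5 ± 103 CPM in other cells, or 1927 ± 851 and 117 ± 104 CPM without MYC spinal 2 (n = 5). The tumor cells of both subtypes overlapped, with a mean of 1492 ± 1165 CPM (SD, n = 3) for MYC spinal tumors, or 1780 ± 1488 CPM without MYC spinal 2 (n = 2), against 2024 ± 554 CPM (n = 3) for eRT. With the 16 cells of MYC spinal 2 that stayed in a tumor cluster at the finer resolution, that tumor stood at 4034 CPM, the highest of the 6.

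**Figure D1:**
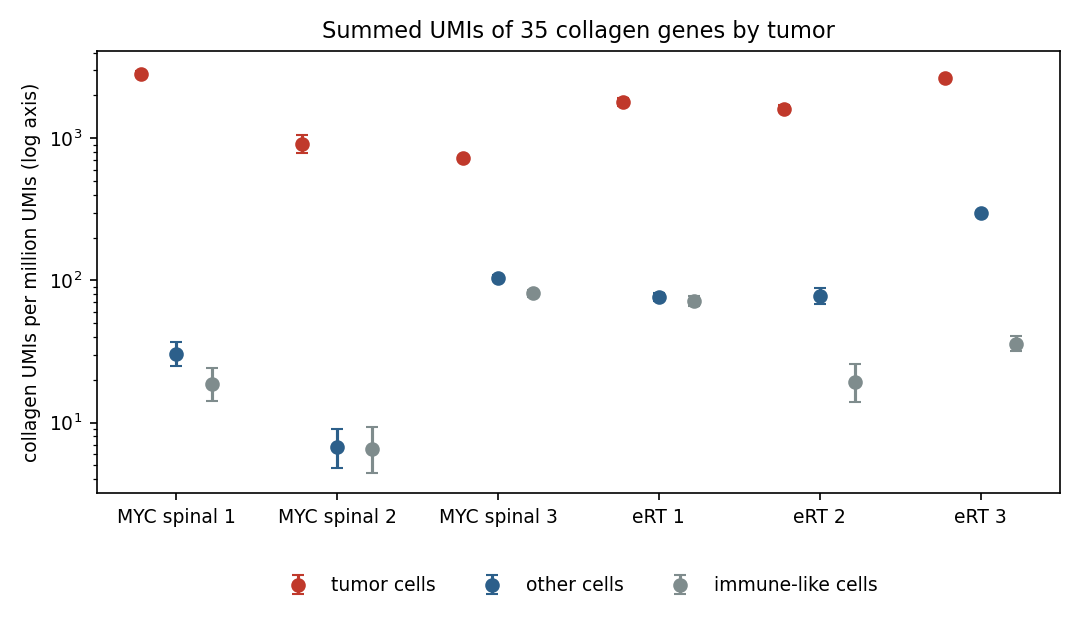
Summed level of the 35 collagens in CPM (log axis) in tumor cells, other cells and immune-like cells of each tumor. Bars are exact Poisson 95% intervals, which cover counting error only, and tumor cells lie between 728 and 2833 CPM, above every value of other cells, which reach 296 CPM.

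In other cells the source of the collagen UMIs differed between tumors. In eRT 3, 77 fibroblast-like cells of a cluster not called tumor held 2026 collagen UMIs, at 8513 CPM. These were 87.8% of the collagen UMIs in the other cells of eRT 3. In eRT 2 only 6 cells of the same cluster held 77.0% of those in other cells. Over the eRT this cluster held 4 *Smarcb1* UMIs where 13.8 were expected. That ratio of 0.289 lay just above the limit for a tumor cluster, and a looser limit counted the cluster as tumor. Whether its cells are tumor cells was not tested. In MYC spinal 3, 20 cells of cluster 22, which was left unnamed, held 574 collagen UMIs at 10010 CPM, 31.8% of those in other cells. In MYC spinal 1, 16 cells of cluster 22 held 41 collagen UMIs, 41.0% of those in other cells, none of them of *Col1a1* or *Col1a2*. In eRT 1, 432 of the 2075 other cells (20.8%) held a *Col14a1* UMI. In MYC spinal 3, 1477 osteoclast-like cells of cluster 1 held 543 collagen UMIs, 30.1% of those in other cells, at 78.0 CPM. A further 18.6% in MYC spinal 3 came from 83 osteoclast-like cells with 2.61 times the median UMI count of that tumor, among whose leading genes stood *Igfbp3*, *Fn1* and *Ctsk*, and the part of doublets there was not tested. In immune-like cells alone the 35 collagens summed to 6.55 to 81.0 CPM. Summed markers of fibroblasts were also higher in tumor cells than in other cells of each tumor. Of that list, 7 of the 8 genes were in the tables, with 61.7 to 1209 CPM in tumor cells and 10.7 to 108 CPM in other cells. Their order over tumors was not that of the collagens, with 638 CPM in MYC spinal 1 and 1141 CPM in eRT 2. In tumor cells *Clec3b* was at 0 in all tumors but MYC spinal 3, *Pi16* in MYC spinal 1, eRT 1 and eRT 3, and *Lum* in MYC spinal 2 and 3. The pericyte and endothelial lists were higher in tumor cells of some tumors and lower in those of others. The osteoblast list was higher in tumor cells of every tumor but MYC spinal 1, at 16.08 CPM against 16.15 CPM in other cells. The part of admixed fibroblasts in the tumor-cell levels was not tested, and less RNA per cell and fewer expressing cells cannot be told apart in summed levels.

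Fibrillar collagens made up most of the collagen UMIs of tumor cells in every tumor. They took 76.3%, 80.8% and 81.4% in MYC spinal 1, 2 and 3 and 72.2%, 78.3% and 83.6% in eRT 1, 2 and 3. The remaining classes were shared out differently. Type VIII, the short-chain class, took 12.9% and 16.8% in MYC spinal 1 and eRT 1, was not found in the tumor cells of MYC spinal 2, and took 1.99% to 4.80% in the remaining tumors. Type VI, the beaded filaments, took 12.7% in eRT 2 and 10.4% in MYC spinal 2 but 2.26% in MYC spinal 3. Type IV, of basement membranes, took 8.53% in MYC spinal 3 and 6.22% in MYC spinal 2 against 0.237% in eRT 3. FACIT collagens took between 1.04% and 4.54% in tumor cells, but they took 62.2% of the collagen UMIs in the other cells of eRT 1, where *Col14a1* supplied 577 of 934.

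Between tumor cells and other cells of all 6 tumors, 11 of the 35 collagens had enough UMIs to be tested, and 9 rose in tumor cells at an adjusted p under 0.05 in edgeR's quasi-likelihood test with the tumor as a block, where 11.7% of all 9877 genes tested were called higher and 14% lower. The 9 were *Col1a1*, *Col1a2*, *Col3a1*, *Col5a2*, *Col6a1*, *Col6a2*, *Col8a1*, *Col16a1* and *Col18a1*, and no collagen was called lower. The filter on low counts passes a gene that is high in tumor cells alone, so the share called among the 11 carries no weight of its own. When every gene with at least 1 UMI was tested instead, 12 of 35 collagens were called higher and *Col27a1* lower, against 9.45% and 10.6% of 16556 genes. The median log2 fold change was 4.64 over the 11 collagens and -0.018 over all genes tested, a contrast shaped by the same filter. With every gene tested it was 2.83 over the 35 collagens, 25 of them above 0, and -0.01 over all genes. Without MYC spinal 2, 9 collagens were again called higher (13% of genes), of which 8 were shared with the 6-tumor result, *Col1a1* being lost and *Col11a1* gained.

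**Figure D2:**
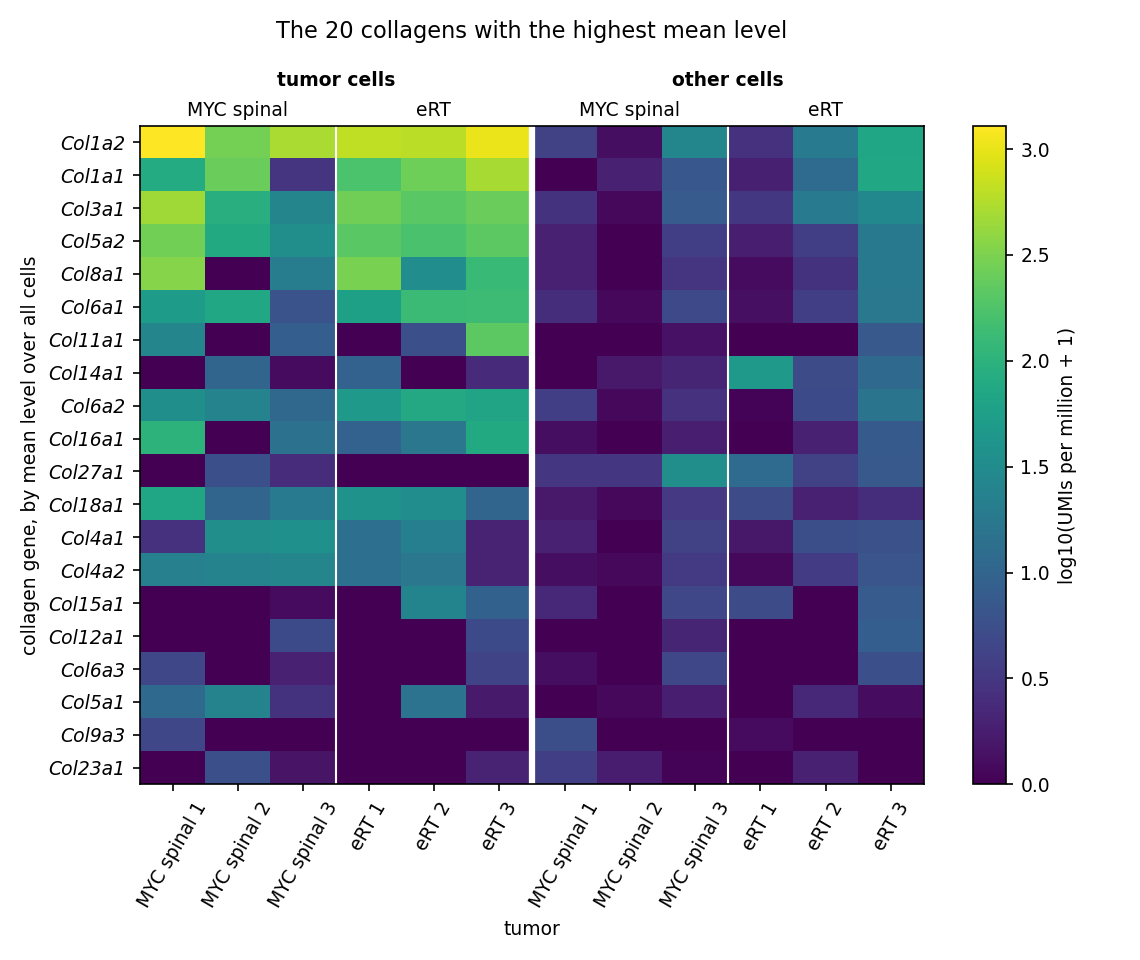
Levels of the 20 collagens with the highest mean over all cells, as log10(CPM + 1), in tumor cells and other cells of each tumor. *Col1a2* is the brightest row in tumor cells, from 289 CPM in MYC spinal 2 to 1287 CPM in MYC spinal 1. *Col14a1* is brighter in other cells of 4 tumors and *Col27a1* in those of 5, while in MYC spinal 2 both are brighter in tumor cells.

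Type I collagen is the main fibrillar collagen of bone, skin and tumor stroma, and its usual molecule holds more alpha1 chains, encoded by *Col1a1* (chromosome 11, 94936224 to 94953042, GRCm38, plus strand), than alpha2 chains, encoded by *Col1a2* (chromosome 6, 4504814 to 4541544, plus strand). *Col1a2* had the highest level of all collagens in the tumor cells of every tumor, with 1287, 289 and 521 CPM in the MYC spinal tumors and 654, 619 and 1047 CPM in the eRT. In other cells *Col1a2* stood at 3.05, 0.318 and 25.7 CPM and at 1.80, 17.5 and 67.4 CPM in the same order. The groups did not overlap, and *Col1a2* was higher in tumor cells by 6.30 ± 0.907 on the log2 scale (SE, edgeR, adjusted p = 0.00152), and by 5.81 ± 0.909 without MYC spinal 2 (adjusted p = 0.00321).

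*Col1a1* was spread far more unevenly over the tumor cells. Its level was 80.4, 251.2 and 2.04 CPM in the MYC spinal tumors and 169, 262 and 502 CPM in the eRT. Other cells held 0, 0.955 and 6.04 CPM and 0.900, 11.1 and 72.5 CPM. The groups overlapped, since MYC spinal 3 had less *Col1a1* in tumor cells than in other cells, where 98 of its 105 UMIs lay in the 20 cells of cluster 22, and in MYC spinal 1 the level in tumor cells was at least 88.0-fold higher than the 3-count floor of other cells allows. *Col1a1* was higher in tumor cells by 4.83 ± 1.38 (log2, adjusted p = 0.0325 in edgeR), a call that was lost without MYC spinal 1, MYC spinal 2, eRT 1 or eRT 2 in turn, at adjusted p = 0.0634, 0.0801, 0.0877 and 0.0941.

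The chains of type I collagen were unequal in UMIs, and by different amounts. *Col1a1* gave 5.88% of the *Col1a1* and *Col1a2* UMIs in tumor cells of MYC spinal 1 (exact 95% binomial interval 4.32 to 7.79%, counting error only), 46.5% in MYC spinal 2 (37.1 to 56.1%) and 0.391% in MYC spinal 3 (0.232 to 0.617%). In the eRT it gave 20.5% in eRT 1 (16.6 to 24.9%), 29.7% in eRT 2 (25.9 to 33.8%) and 32.4% in eRT 3 (31.1 to 33.8%). The lowest share was that of MYC spinal 3, with 18 *Col1a1* UMIs beside 4587 of *Col1a2*, and the highest that of MYC spinal 2, where 53 and 61 UMIs were counted, 53 and 59 of them in the 16 cells with osteoblast markers. Without MYC spinal 2, the MYC spinal shares lay below every eRT share, a difference between 2 and 3 tumors that has no test here. In the fibroblast-like cells of eRT 3 not called tumor the share was 53.2% (50.1 to 56.3%), above that in tumor cells of the same library. Those cells were themselves low in *Smarcb1*, at 12.6 CPM against 53.2 CPM in the immune-like cells of eRT 3. Whether they are normal fibroblasts was not tested. The 20 cells of cluster 22 in MYC spinal 3 held 98 *Col1a1* and 92 *Col1a2* UMIs. The immune-like cells of MYC spinal 3 held 7 and 309 UMIs, a share of 2.22% (0.895 to 4.51%).

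**Figure D3:**
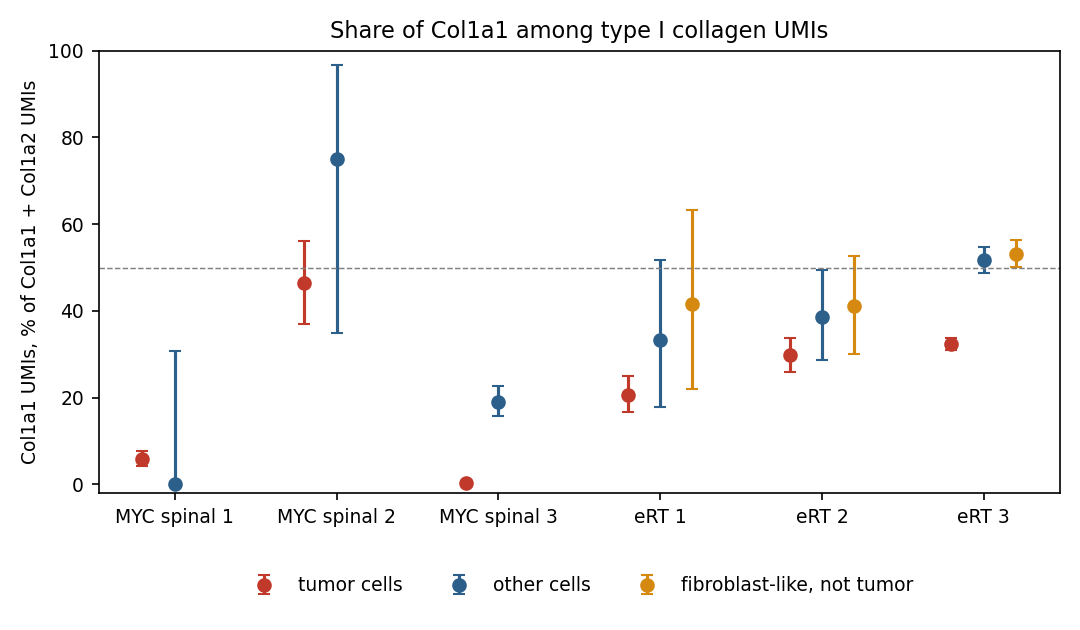
*Col1a1* UMIs as a percentage of *Col1a1* and *Col1a2* UMIs in tumor cells, other cells and fibroblast-like cells not called tumor, by tumor. Bars are exact 95% binomial intervals (counting error only), and the dashed line is at 50%. The fibroblast-like cells were counted as tumor at a *Smarcb1* limit of 0.5. Tumor cells of MYC spinal 3 sit at 0.391% and those of eRT 3 at 32.4%, below the 53.2% of the fibroblast-like cells of eRT 3.

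*Col3a1* (chromosome 1, 45311538 to 45349706, plus strand) and *Col5a2* (chromosome 1, 45374321 to 45503282, minus strand) encode chains of type III collagen, found with type I in stretchable tissue, and of type V, which limits fibril width. They are neighbours with 24614 bases between them and point towards each other. *Col3a1* stood at 468, 90.0 and 24.8 CPM in MYC spinal tumor cells and at 274, 204 and 249 CPM in eRT tumor cells, against 1.83, 0.159 and 6.91 CPM and 2.21, 18.8 and 27.5 CPM in other cells. Tumor cells were higher in every tumor, but the lowest of them, MYC spinal 3, lay below the other cells of eRT 3, and the change was 4.79 ± 0.958 (log2, SE, adjusted p = 0.00683 in edgeR). *Col5a2* stood at 281, 75.8 and 33.6 CPM and at 205, 162 and 209 CPM in tumor cells, against 0.914, 0 and 2.82 CPM and 0.818, 2.77 and 17.2 CPM in other cells. Its groups did not overlap, with a change of 5.80 ± 0.859 (adjusted p = 0.00173). The UMIs of this pair were nearly balanced in the tumor cells, *Col3a1* taking 42.4% to 62.5% of their sum over the 6 tumors, and without MYC spinal 2 both stayed higher (4.30 ± 0.966 and 5.43 ± 0.855, adjusted p = 0.0149 and 0.0033).

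The promoters of *Col1a2*, *Col3a1* and *Col8a1*, 2 fibrillar genes and 1 of the network type VIII, are shown as examples. These genes rose in tumor cells and had an entry in the promoter table. The same held for *Col6a1*, *Col6a2*, *Col16a1* and *Col18a1*, which are not shown. Each runs from 250 bases before to 50 bases after the gene's start in RefSeq on GRCm38.p6, 5′ to 3′ on the gene's strand, and capitals mark the letters of a CCAAT box, of a TATA box (searched as TATAAA) and of a GC box (searched as GGGCGG), each looked for on both strands.
Col1a2, chr6:4505368-4505667, plus strand: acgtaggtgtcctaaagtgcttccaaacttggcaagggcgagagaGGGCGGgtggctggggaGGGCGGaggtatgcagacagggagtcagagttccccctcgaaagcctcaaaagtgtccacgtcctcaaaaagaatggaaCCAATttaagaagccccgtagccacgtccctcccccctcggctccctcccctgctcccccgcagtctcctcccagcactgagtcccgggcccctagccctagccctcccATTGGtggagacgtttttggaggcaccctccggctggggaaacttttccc
Col3a1, chr1:45311288-45311587, plus strand: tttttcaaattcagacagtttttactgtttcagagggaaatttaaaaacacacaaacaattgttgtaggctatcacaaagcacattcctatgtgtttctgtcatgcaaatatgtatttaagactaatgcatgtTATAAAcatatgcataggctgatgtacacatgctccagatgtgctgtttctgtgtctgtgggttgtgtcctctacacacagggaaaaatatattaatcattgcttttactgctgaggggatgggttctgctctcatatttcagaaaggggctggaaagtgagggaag
Col8a1, chr16:57754688-57754987, minus strand: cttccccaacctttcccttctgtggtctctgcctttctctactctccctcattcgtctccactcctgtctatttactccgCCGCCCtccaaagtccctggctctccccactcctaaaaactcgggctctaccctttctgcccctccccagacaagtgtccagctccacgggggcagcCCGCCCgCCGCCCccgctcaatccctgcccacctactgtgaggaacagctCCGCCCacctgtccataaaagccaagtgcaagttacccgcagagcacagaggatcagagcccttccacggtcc
The 3 windows held different motifs. *Col1a2* had a CCAAT box 109 bases before the start and another at the start, and GC boxes 205 and 188 bases before it. Its window, from 4505368, lies wholly downstream of the gene start given above (4504814), so these distances hold for the RefSeq start alone. *Col3a1* had only a TATA box, 117 bases before the start, and *Col8a1* had only GC boxes, 4 in number. Of the 35 collagens 29 had an entry, in 32 promoters, of which 59.4% held a GC box, 34.4% a CCAAT box and 12.5% a TATA box, against 35.7%, 37.4% and 13.6% of 32851 promoters in all. A match describes letters in the window and no binding was measured.

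The other fibrillar collagens were lower or found in few tumors. *Col11a1* encodes the alpha1 chain of type XI collagen, known from cartilage and from activated fibroblasts, and lies on chromosome 3, 114030540 to 114220718. Tumor cells held 25.02, 0 and 7.38 CPM of it in the MYC spinal tumors and 0, 4.82 and 208 CPM in the eRT, and 629 of its 711 UMIs in tumor cells came from eRT 3. Other cells held 0, 0 and 0.403 CPM and 0, 0 and 6.42 CPM. *Col5a1*, the partner chain of *Col5a2*, reached 10.7, 23.7 and 1.82 CPM and 0, 14.5 and 0.662 CPM in tumor cells and at most 1.23 CPM in other cells, and it passed the test only when every gene was tested (3.38 ± 1.04, adjusted p = 0.0481). Neither *Col5a3* nor *Col11a2* had more than 8.94 CPM in any sum.

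*Col27a1*, a fibrillar collagen known from cartilage, went the other way. It was found in the other cells of all 6 tumors, with 2.13, 2.07 and 33.1 CPM in the MYC spinal tumors and 11.3, 3.08 and 6.29 CPM in the eRT. In tumor cells it was at 0, 4.74 and 1.48 CPM and at 0 in all 3 eRT, and 0 counts left it at least 1.76-fold lower in eRT 1 and at least 6.33-fold lower in eRT 3, while in MYC spinal 1 and eRT 2 a level as high as that of other cells could not have been detected. In MYC spinal 3 and eRT 1 most of these UMIs, 482 of 575 and 117 of 138, came from osteoclast-like cells, which resorb bone and were named from *Ctsk*, *Acp5* and related markers. They stood at 62.6 CPM in MYC spinal 3 (1560 cells, exact 95% Poisson interval 57.1 to 68.4) and at 27.5 CPM in eRT 1 (553 cells, 22.7 to 32.9), against 15.1 and 4.35 CPM in the other cells that were neither osteoclast-like nor macrophage-like. The other 4 tumors held at most 10 osteoclast-like cells each, and in eRT 3 macrophage-like cells held 44 of the 49 UMIs. After thinning to 1000 UMIs a cell, 2.42% of immune-like cells of MYC spinal 3 and 0.182% of its tumor cells kept a *Col27a1* UMI (9.49% and 0.745% before thinning, at median depths of 2788 and 4350 UMIs). In the 6-tumor comparison *Col27a1* was called lower only when every gene was tested, with -4.57 ± 0.839 (adjusted p = 0.00375), or when MYC spinal 1 or eRT 2 was left out.

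Type VI collagen links cells to the surrounding fibrils. Its alpha1 and alpha2 chains come from *Col6a1* (chromosome 10, 76708792 to 76726168, minus strand) and *Col6a2* (chromosome 10, 76595762 to 76623630, minus strand), neighbours with 85161 bases between them. *Col6a1* stood at 50.0, 71.1 and 5.22 CPM in MYC spinal tumor cells and at 57.7, 132 and 135 CPM in eRT tumor cells, against 1.52, 0.159 and 3.91 CPM and 0.327, 2.77 and 16.6 CPM in other cells. *Col6a2* stood at 33.96, 23.7 and 10.3 CPM and at 47.0, 73.9 and 64.3 CPM, against 2.74, 0.159 and 1.78 CPM and 0.0818, 4.00 and 14.8 CPM. Both were higher in tumor cells of all 6 tumors, with the tumor cells of MYC spinal 3 lowest and below the other cells of eRT 3, and the changes were 4.46 ± 0.988 and 3.84 ± 0.779 (log2, SE, adjusted p = 0.011 and 0.00726 in edgeR), or 3.93 ± 1.002 and 3.57 ± 0.807 without MYC spinal 2 (adjusted p = 0.0244 and 0.0154). *Col6a3*, the third chain, was at 3.57 CPM or less in tumor cells and at 4.75 CPM or less in other cells.

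*Col8a1* (chromosome 16, 57624258 to 57754737, minus strand) encodes a chain of the short network type VIII. It was at 350, 0 and 19.3 CPM in MYC spinal tumor cells and at 303, 32.1 and 127 CPM in eRT tumor cells. In other cells it was at 0.914, 0 and 2.01 CPM and at 0.245, 1.85 and 17.0 CPM. Tumor cells were higher in the 5 tumors where it was found, by 5.13 ± 1.17 on the log2 scale over all tumors (adjusted p = 0.0154 in edgeR) and by 5.12 ± 1.19 without MYC spinal 2 (adjusted p = 0.0172). Its partner *Col8a2* had 8 UMIs in tumor cells, all in MYC spinal 1, and 1 in other cells.

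Basement membrane type IV is built mainly from *Col4a1* (chromosome 8, 11198423 to 11312826, minus strand) and *Col4a2* (chromosome 8, 11312805 to 11449287, plus strand), whose annotated ends overlap head to head. *Col4a1* was at 1.79, 33.2 and 35.8 CPM in MYC spinal tumor cells and at 12.8, 20.9 and 0.994 CPM in eRT tumor cells. *Col4a2* was at 21.4, 23.7 and 24.98 CPM and at 12.8, 16.1 and 0.994 CPM. In other cells neither passed 5.52 CPM, and the exception to the higher level in tumor cells was eRT 3, where other cells had 4.88 and 5.52 CPM. Neither passed the test over 6 tumors, at 2.69 ± 1.09 and 3.29 ± 1.08 (adjusted p = 0.105 and 0.0534 in edgeR), and both did without eRT 3 (3.60 and 4.32, adjusted p = 0.0178 and 0.0035). Counting that run, *Col4a1* was called in 2 of 17 alternative runs of this comparison and *Col4a2* in 9 of 18. UMIs of the pair were close to even in tumor cells of MYC spinal 3, with 315 and 220, whereas MYC spinal 1 had 1 and 12.

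*Col18a1*, a multiplexin whose C-terminal fragment is endostatin, and *Col16a1*, a FACIT collagen, were called higher from lower levels. *Col18a1* stood at 66.1, 9.48 and 17.6 CPM in MYC spinal tumor cells and at 38.5, 32.1 and 9.27 CPM in eRT tumor cells, and no other cells passed 4.34 CPM. Its groups did not overlap and the change was 3.74 ± 0.556 (log2, adjusted p = 0.00175 in edgeR). *Col16a1* stood at 100, 0 and 13.3 CPM and at 8.55, 16.1 and 76.8 CPM, with at most 6.68 CPM in other cells, and changed by 4.64 ± 0.710 (adjusted p = 0.00284). Both kept their call without MYC spinal 2 (3.62 and 4.62, adjusted p = 0.00361 and 0.00298). *Col15a1*, the other multiplexin, reached 24.1 CPM in the tumor cells of eRT 2 and 8.28 CPM in those of eRT 3, and was at 0.227 CPM or less in the other 4 tumors, with 6.81 CPM or less in other cells.

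*Col14a1* (chromosome 15, 55307750 to 55520803, plus strand), a FACIT collagen of tendon and skin, was mainly found outside the tumor cells. Other cells held 0, 0.637 and 1.09 CPM in the MYC spinal tumors and 47.2, 4.31 and 10.5 CPM in the eRT, whereas tumor cells held 0, 9.48 and 0.227 CPM and 8.55, 0 and 1.32 CPM. The tumor-cell values of MYC spinal 2 and eRT 1 rest on 2 and 4 UMIs. In the tumor cells of eRT 2 a level as high as that of other cells could not have been detected. In eRT 1 macrophage-like cells stood at 92.4 CPM (82.1 to 104) and osteoclast-like cells at 10.6 CPM (7.70 to 14.1), with 50.2 CPM (44.0 to 56.9) in its remaining other cells, and in eRT 3 macrophage-like cells stood at 11.8 CPM (9.28 to 14.7). After thinning to 1000 UMIs, 4.94% of immune-like cells of eRT 1 kept a *Col14a1* UMI against 0.315% of its tumor cells (19.1% and 2.94% before thinning, at median depths of 4837 and 6142 UMIs). The thinned share for *Col1a1* in those immune-like cells was 0.0092%, and in the tumor cells it was 6.68%.

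The remaining collagens with values by rank were sparse. *Col12a1* was at 3.97 CPM in tumor cells of both MYC spinal 3 and eRT 3 and at 7.45 CPM in other cells of eRT 3, 57 of whose 58 UMIs lay in the fibroblast-like cells. *Col9a3* had 15 of its 20 UMIs in other cells of MYC spinal 1, and *Col23a1* was at 4.74 CPM or less in every sum. The other 15 collagens together had 88 UMIs in tumor cells and 115 in other cells and none passed 14.3 CPM. *Col9a1* and *Col9a2*, chains of cartilage type IX, had 8 and 6 UMIs in the tumor cells of MYC spinal 1 and none elsewhere, *Col17a1* had its 3 UMIs in tumor cells, and *Col4a4* and *Col28a1* had none in tumor cells.

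Shares of cells with a UMI were compared after thinning each cell to a common depth. After thinning to 1000 UMIs, *Col1a2* was kept by 67.2%, 18.3% and 35.2% of tumor cells in MYC spinal 1, 2 and 3 and by 31.3%, 23.2% and 61.2% in eRT 1, 2 and 3, after 2, 188 and 0 and 0, 20 and 0 shallower cells were left out. Before thinning the shares were 94.2%, 5.93%, 70.9%, 57.4%, 34.8% and 91.8%, at median depths of 728 UMIs in MYC spinal 2 to 6142 in eRT 1. Immune-like cells, which should lack the gene, kept it in 0.0438% to 1.22% of cells, the highest value again in MYC spinal 3, at median depths of 860 to 4837 UMIs. For *Col1a1* the thinned share was 37.6% in tumor cells of eRT 3 and 0.203% in those of MYC spinal 3, where 0.0424% of immune-like cells kept a UMI.

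In the MYC spinal tumors alone, no collagen passed the threshold of edgeR's test, and neither did any of the 10643 genes tested (0%). In simulated data this test recovered 6.5% of genes changed by a log2 fold change of 2 and 91% at 5. Of the 10 collagens tested, 8 had an unadjusted p under 0.05, as did 1955 of all genes, and DESeq2 called 9 collagens higher and 0 lower, where it called 4.83% and 5.68% of genes. With every gene tested, edgeR called 4 collagens higher (1.39% of genes). *Col1a2* had the largest change, 7.10 ± 1.23 on the log2 scale (adjusted p = 0.0674), and *Col1a1* the widest error, 5.14 ± 2.76 (adjusted p = 0.412). *Col27a1* was at -3.98 ± 1.21 (adjusted p = 0.166). At the finer resolution, with 16 tumor cells left in MYC spinal 2, 9 collagens were called higher (4.21% of genes) and *Col27a1* lower (7.34%), but without MYC spinal 2 none was called (0%), with 10 of 17 collagens tested at an unadjusted p under 0.05.

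In the eRT alone, 14 collagens were tested and 9 were called higher, where 8.27% of 10097 genes were, and *Col14a1* was called lower, where 10.2% of genes were. The 9 were *Col1a1*, *Col1a2*, *Col3a1*, *Col5a2*, *Col6a1*, *Col6a2*, *Col11a1*, *Col16a1* and *Col18a1*. *Col11a1* changed by 4.90 ± 0.602 (log2, adjusted p = 0.00689 in edgeR) and *Col14a1* by -2.99 ± 0.522 (adjusted p = 0.0127), and *Col8a1* missed the threshold at 5.09 ± 1.44 (adjusted p = 0.0602). Tumor cells of eRT 3 held 629 *Col11a1* UMIs, against 0 in eRT 1 and 3 in eRT 2. The *Col11a1* call was absent without eRT 3, without the tumor as a block, at a *Smarcb1* limit of 0.5 and with immune-like cells alone. That of *Col14a1* was absent without eRT 3 and without the tumor as a block. The median log2 fold change was 4.23 over the 14 that passed the filter and 2.56 over the 27 tested with every gene. DESeq2 called 10 higher and 1 lower, where 9.8% and 11.7% of genes were, and with every gene tested edgeR called 10 higher and 2 lower (6.46% and 8.18%). Without eRT 2 only 3 were called higher and 2 lower (5.32% and 6% of genes), and without the tumor as a block 3 were called higher and 0 lower (6.45% and 6.79%).

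**Figure D4:**
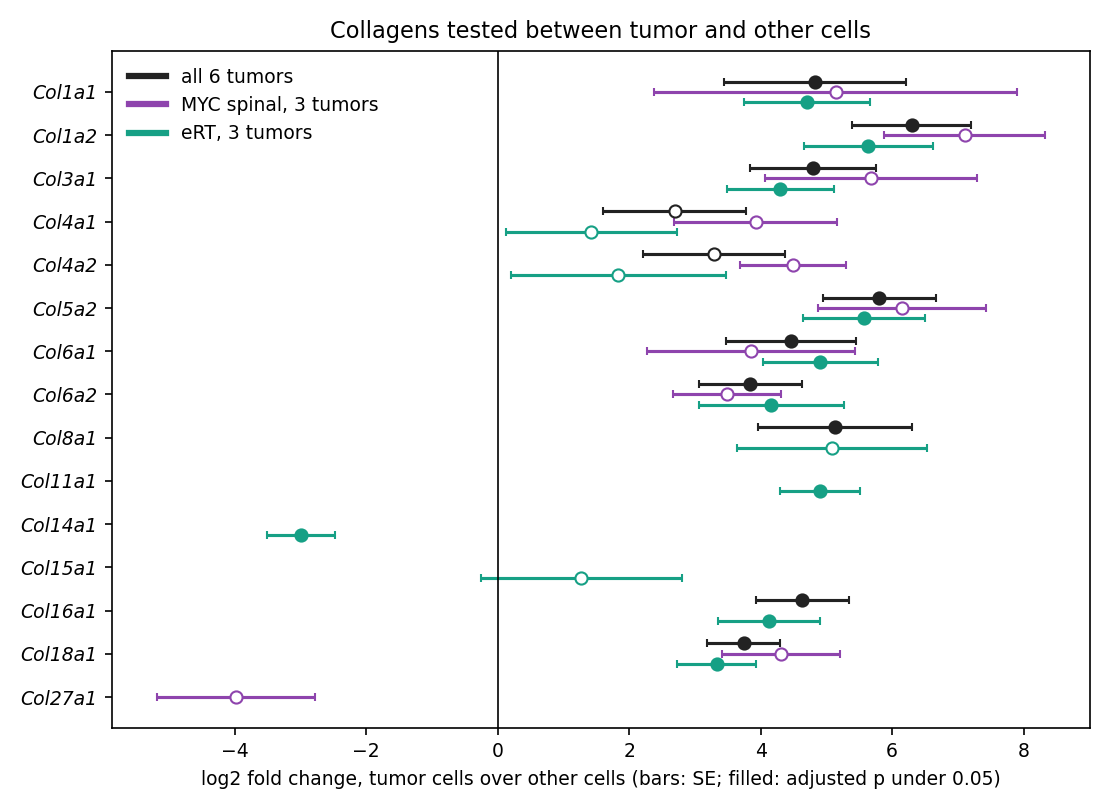
Log2 fold changes of tumor cells over other cells with SE for the collagens tested over all 6 tumors, the MYC spinal tumors and the eRT, with filled points for an adjusted p under 0.05. Bars of MYC spinal are the widest for *Col1a1*, at 5.14 ± 2.76, and the points left of 0 are *Col14a1* in eRT (-2.99) and *Col27a1* in MYC spinal (-3.98).

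Between the subtypes, tumor cells of eRT and MYC spinal tumors showed no collagen whose difference passed the test. In edgeR 0 of 10 collagens and 0% of 5656 genes passed, with 1 collagen and 189 genes at an unadjusted p under 0.05, and DESeq2 called 0 collagens, where it called 0.354% of genes higher in eRT and 0.0177% lower. The collagen below 0.05 was *Col6a2*, at 23.7 to 33.96 CPM in 2 MYC spinal tumors, 10.3 CPM in MYC spinal 3 and 47.0 to 73.9 CPM in the eRT, with a change of 1.83 ± 0.563 (log2, adjusted p = 0.999). Its groups did not overlap. *Col1a2*, the leading collagen of both, differed by 0.454 ± 0.514 and *Col1a1* by 1.59 ± 1.34, neither beyond the error that 3 tumors a group leave. The test of whether the step from other to tumor cells differed between subtypes called none of 18 collagens and 0% of 11596 genes, with 0 collagens and 313 genes at an unadjusted p under 0.05, and DESeq2 called 2 genes and no collagen. Without MYC spinal 2 edgeR called 0 of 12 collagens and 0% of 6420 genes between the subtypes, with 2 collagens and 307 genes at an unadjusted p under 0.05. It called 0 of 20 collagens and 0% of 12121 genes for the difference in that step, with 0 and 310 at an unadjusted p under 0.05.

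Within a tumor, tumor clusters differed in their collagens. In MYC spinal 3, *Col1a2* was found at 497, 537 and 849 CPM in clusters 10, 2 and 19 and at 57.3 CPM in cluster 18. *Col3a1* and *Col8a1* followed another pattern, at 211 and 214 CPM in the 94 cells of cluster 19, which was led by *Bex1* and *Stmn2*, and at 17.3 CPM or less in the other 3 clusters. *Col1a1* was at 4.38 CPM or less in each of the 4, with 1 UMI beside 1927 of *Col1a2* in cluster 10 and 0 beside 552 in cluster 19.

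In the eRT, cluster 2 carried *Col1a1* in each tumor, at 431, 493 and 507 CPM, with 18, 54 and 559 cells. The 37 epithelial-like cells of cluster 19 in eRT 1 had 0 *Col1a1* UMIs and 63 of *Col1a2*, and they held 103 of the 142 *Col8a1* UMIs of the tumor cells of eRT 1, at 456 CPM. Cluster 11 differed between tumors, with 0 *Col1a1* and 27 *Col1a2* UMIs in 145 cells of eRT 2 and 178 and 344 UMIs in 66 cells of eRT 3. These are descriptions of clusters, without a test, since a cluster in 1 tumor has no replicate.

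**Figure D5:**
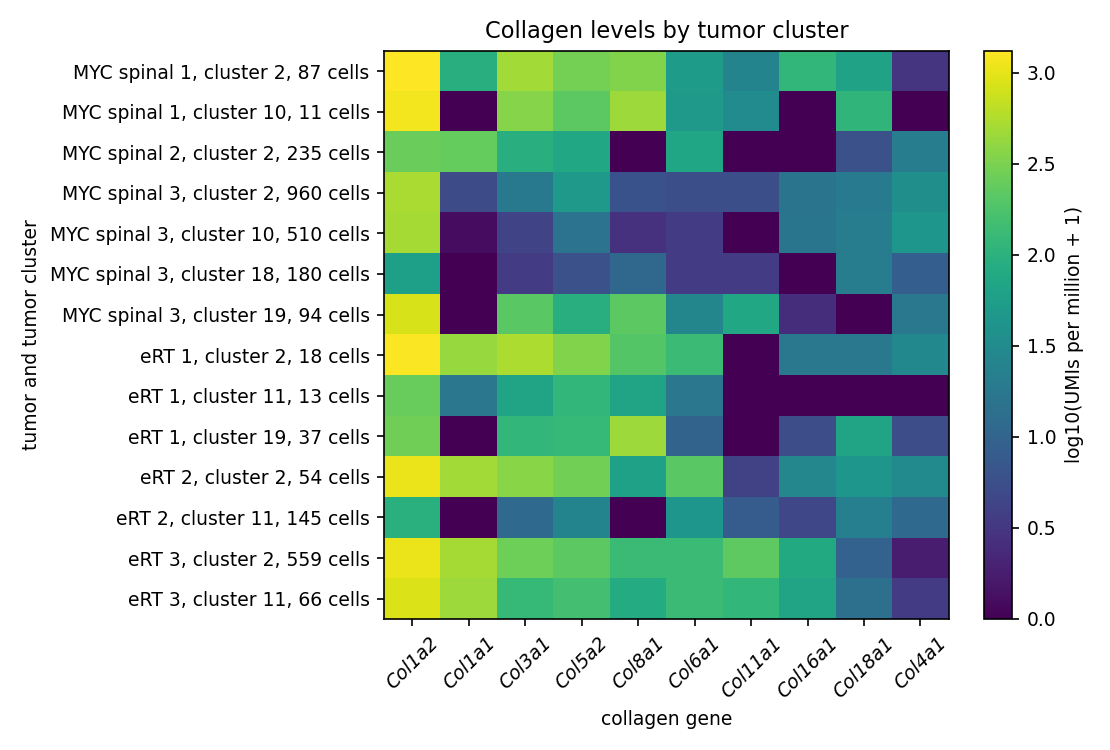
Levels of 10 collagens as log10(CPM + 1) in each tumor cluster with at least 10 cells of a tumor. Cluster 2 of each eRT is bright for *Col1a1* (431 to 507 CPM), which is dark in all 4 clusters of MYC spinal 3 (4.38 CPM or less), and *Col8a1* is bright in cluster 19 of eRT 1 at 456 CPM.

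The genes that fold, process, cross-link and sense collagens were taken from a list of 42. Of these, 21 were tested over the 6 tumors, 11 rose and 1 fell, where 11.7% of all genes were called higher and 14% lower, and the filter on low counts passes a gene that is high in tumor cells alone here too. Without MYC spinal 2, 13 of 22 rose and 1 fell (13% and 13.8% of genes). Among the 15 tested folding and modification genes 8 rose and none fell. The smallest adjusted p-values among those that rose belonged to *P3h3* (a prolyl 3-hydroxylase), *P4ha3* (a subunit of prolyl 4-hydroxylase) and *Fkbp10* (a collagen chaperone). *Fkbp10* stood at 231, 23.7 and 85.4 CPM in MYC spinal tumor cells and at 103, 72.3 and 119 CPM in eRT tumor cells, against 6.03 CPM or less in other cells, and rose by 6.05 ± 0.736 (log2, adjusted p = 0.000747 in edgeR). *P3h3* and *P4ha3* rose by 3.60 ± 0.380 and 5.54 ± 0.628 (adjusted p = 0.00049 and 0.000622), from levels of 9.48 to 44.0 CPM and 25.7 to 135 CPM in tumor cells. *Serpinh1* and *Lox* are added here with their values already seen. *Serpinh1*, the collagen-specific chaperone HSP47, stood at 119 to 1323 CPM in tumor cells, lowest in MYC spinal 2 and highest in MYC spinal 1, and at 25.04 CPM or less in other cells (6.39 ± 0.882, adjusted p = 0.00126). *Lox*, which cross-links collagen, rose by 5.21 ± 0.682 (adjusted p = 0.00103). It was at 12.1 to 21.4 CPM in tumor cells of the MYC spinal tumors and at 135 to 323 CPM in those of the eRT, groups that did not overlap, and the difference of 3.88 ± 0.491 (log2, SE) did not pass the test across 5656 genes (adjusted p = 0.2 in edgeR). The gene that fell was *Lair1*, an inhibitory collagen receptor of leukocytes, at 1.79 to 33.2 CPM in tumor cells and 24.7 to 218 CPM in other cells (-3.38 ± 0.575, adjusted p = 0.00325), its highest tumor-cell level being that of MYC spinal 2. The median log2 fold change was 1.92 over the 21 that passed the filter and 1.89 over the 37 tested with every gene.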

How the data were processed

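The authors deposited tables of UMI counts per gene and cell, 1 per tumor, made from 10x Genomics 3′ v2 libraries with Cell Ranger 2.0.2 on mm10, per the labels and the study's methods. Live cells had been sorted after enzymatic dissociation. Of 22681 cells, 22163 passed filters of 200 genes or more and a mitochondrial share up to 25%. Cells of each subtype were clustered in Seurat 5.3.0 (2000 variable genes, 30 dimensions, 20 neighbors, resolution 0.8) without collagens or the genes of their pathway, though genes correlated with them remained. A cluster was called tumor with at least 10 expected *Smarcb1* UMIs and under 0.25 of them found, and other clusters were named X-like from marker lists. The leading genes of cluster 22 of the MYC spinal tumors are not reported here. Cells are numbered in the tables, so barcodes shared between libraries could not be counted. Counts were summed per tumor and kind of cell (at least 10 cells) and tested with edgeR 4.0.16 (quasi-likelihood, TMM factors, filterByExpr) with the tumor as a block, and with DESeq2 1.42.0 as an alternative, in R 4.3.3. P-values were adjusted by the Benjamini-Hochberg method over all genes tested, with a threshold of 0.05, and measure the spread between tumors, each from 1 mouse. Intervals (95%) and the floor of 3 counts cover counting error only. Libraries held 3841706 to 26184224 UMIs, and cells a median of 916 to 5211. Scripts were tested on simulated data. Scrublet marked 20 cells, 0.0902%, so it did not work here and no doublets were removed. Named collagens are the 20 with the highest mean over all cells, by rank at a limit of 0.752 CPM against 0.651 CPM for the next, and named pathway genes are the 3 with the smallest adjusted p in each direction, of which 1 was lower. Members and lists were chosen with earlier results of these data known. Coordinates come from GENCODE vM21 (GRCm38).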

Additional observations from a re-analysis of the deposited data

How the results depend on the processing

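Over all 6 tumors, 8 to 12 collagens, of 8 to 35 tested, were called higher (8% to 15.2% of genes) under each alternative with 2 exceptions. The immune-like reference gave 6 of 6 tested (12.4% of genes), and a Bonferroni adjustment gave 0 (0.506%). Leaving out 1 tumor gave 8 to 9 higher (8% to 13% of genes) and 0 to 1 lower (9.71% to 14.4%). Testing every gene gave 1 lower (10.6%). In the MYC spinal tumors, where edgeR called 0, DESeq2 gave 9 (4.83% of genes), testing every gene 4 (1.39%), a stricter cell filter (500 genes or more, mitochondrial share up to 10%) 4 (2.49%), leaving out the highest Scrublet scores 1 (1.11%), and immune-like cells alone 6 (1.6%). Resolution 1.6 gave 9 higher and 1 lower there (4.21% and 7.34%), as did clustering with collagens kept (4.17% and 7.36%), and leaving out 1 tumor gave 0 to 4 (0 to 2.65%). In the eRT a Bonferroni adjustment gave 0 higher and 0 lower (0.0495% and 0.0099% of genes). Testing every gene, the stricter cell filter and a *Smarcb1* limit of 0.5 each gave 2 lower (8.18%, 11% and 11.2%), and leaving out 1 tumor gave 3 to 10 higher (5.02% to 8.32%) and 0 to 2 lower (6% to 12.2%). The tumor was the block, since tumor and other cells shared a mouse. Without this replicate block 9, 0 and 3 collagens were called higher over all tumors, in MYC spinal tumors and in the eRT (8.82%, 0% and 6.45% of genes), and 0 lower. The fold change of *Col15a1* in the eRT, not called, was -0.528 without eRT 2 and 2.15 without eRT 1. Summed collagens of MYC spinal 2 moved to 4034 CPM at resolution 1.6 and to 1936 CPM under the stricter filter, MYC spinal 3 to 819 CPM at resolution 0.4, eRT 1 to 1681 CPM under the stricter filter, eRT 2 to 1864 CPM at a limit of 0.5 and 1981 CPM under the stricter filter, and eRT 3 to 3082 CPM at a limit of 0.5. At the limit of 0.5 the fibroblast-like cluster of the eRT was counted as tumor, which gave 207 tumor cells in eRT 2 and 702 in eRT 3. The cause of the other shifts was not tested. Without TMM factors 15.2% of genes were higher and 11.1% lower over all tumors, against 11.7% and 14% with them, and the median log2 fold change of all genes was 0.139 there and between -0.233 and 0.196 in the other comparisons, and no collagen call was lost over all tumors. No collagen was called between the subtypes under any alternative run. At a *Smarcb1* limit of 0.5, however, the difference in the step from other to tumor cells moved. There 5 of 17 collagens and 407 of 11634 genes had an unadjusted p under 0.05 in edgeR. The median log2 fold change over the collagens tested was 2.44, against -0.96 in the main run.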
